A study of Mus musculus with 5 samples.

Results

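The 10 transcription regulators described here are Id2, Id3, Runx3, Runx1, Tbx21, Eomes, Gata3, Bcl11b, Ikzf1 and Ets1, genes that set or maintain T cell identity. They were chosen by name as 10 of 52542 genes with a row in single-cell UMI count tables (a UMI, or unique molecular identifier, tags 1 captured RNA molecule). A cell entered when its well held 1 cell, its UMIs, spike-ins aside, numbered 400 or more and mitochondrial genes gave 30% of them or less, and 1482 cells did. All mice carried the Grl1loxP/loxP genotype, in which the glucocorticoid receptor gene is flanked by loxP sites, all received foot shocks, and cells were taken from the brain parenchyma without the choroid plexus on day 14 after the stress. The 3 TAT-CRE mice (207 and 208, aged 18 weeks, and 215, aged 19 weeks) had TAT-CRE, a cell-permeable Cre recombinase, injected into the brain ventricles, and gave 311, 303 and 298 cells. The 2 PBS mice (216, aged 19 weeks, and 218, aged 16 weeks) had PBS injected and gave 296 and 274 cells. The stated aim of the injection was a receptor knockdown on the choroid plexus, and no promoter restricts the injected protein to a cell type. The sort took cells positive for CD45 and TCRβ and negative for CD11b. Each library is 1 plate and was taken as 1 mouse, and the labels do not say whether animals were pooled.

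Id proteins have no DNA-binding domain of their own and act by capturing E proteins, the factors that bind E-box motifs. In CD8 T cells Id2 favours effector and tissue-resident states, while Id3 goes with naive and memory states. Runx3 and Runx1 are Runt-domain factors, Runx3 being known for silencing Cd4 and for supporting cytotoxic and tissue-resident CD8 T cells. Tbx21 encodes T-bet and Eomes its relative, T-box factors that drive interferon gamma and cytotoxic genes. Gata3 directs CD4 fate and type 2 helper cells. Bcl11b commits precursors to the T lineage, Ikzf1 encodes the zinc finger factor Ikaros, and Ets1 is an ETS-family factor used by resting lymphocytes.

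In GENCODE M21 on mm10, all 10 are protein-coding genes. Id2 (ENSMUSG00000020644.9) lies at chr12:25093799-25097140, Id3 at chr4:136143497-136145755, Runx3 at chr4:135120652-135177990 and Runx1 at chr16:92601466-92826149. Tbx21 lies at chr11:97098071-97115331, Eomes at chr9:118478212-118486132 and Gata3 at chr2:9857078-9890034. Bcl11b lies at chr12:107910403-108003602, Ikzf1 at chr11:11685003-11772926 and Ets1 at chr9:32636221-32757820. The values below are sums over a whole gene and do not tell exons or isoforms apart.

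Sequence before a RefSeq start of 3 of these genes is shown because Id2 differed most between the cell classes below, because Id proteins act through E-boxes (CANNTG), which the capitals mark, and because these stretches hold 1 E-box each. The stretches are the bases of RefSeq's promoter windows (GRCm38.p6, 250 bases before the annotated start) that no GENCODE M21 exon of the gene covers. Each is written 5′ to 3′ in the sense of its gene. They lie at chr12:25096254-25096342 on the minus strand for Id2, at chr4:135120395-135120644 on the plus strand for Runx3, and at chr11:97115332-97115581 on the minus strand for Tbx21. The Runx3 and Tbx21 stretches lie upstream of the GENCODE gene, while the Id2 stretch lies inside it, downstream of its annotated start.
Id2: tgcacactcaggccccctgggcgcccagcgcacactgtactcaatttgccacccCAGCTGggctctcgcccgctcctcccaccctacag
Runx3: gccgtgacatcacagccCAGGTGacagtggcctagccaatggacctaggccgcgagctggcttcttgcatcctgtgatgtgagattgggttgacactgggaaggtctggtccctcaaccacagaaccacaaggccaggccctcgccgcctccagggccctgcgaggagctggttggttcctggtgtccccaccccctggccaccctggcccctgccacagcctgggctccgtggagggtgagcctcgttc
Tbx21: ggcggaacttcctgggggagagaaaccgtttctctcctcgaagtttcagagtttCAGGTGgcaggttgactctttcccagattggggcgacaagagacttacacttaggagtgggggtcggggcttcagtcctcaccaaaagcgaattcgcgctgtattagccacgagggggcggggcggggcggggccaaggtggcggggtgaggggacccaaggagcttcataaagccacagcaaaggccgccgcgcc
The E-box is CAGCTG for Id2 and CAGGTG for Runx3 and Tbx21. The table holds 12 windows of the members, of which 11 have a stretch outside exons; 7 of these stretches hold no E-box, among them those of Gata3, Eomes, Ikzf1 and Bcl11b and a second one each of Runx3 and Runx1, 3 hold 1, and 1, of Runx1, holds 2. An E-box was found, on either strand, in 66.0% of 27025 such windows of the same assembly, so its presence is common. That share is over whole windows, whereas the stretches of the members can be shorter, down to 62 bases for Bcl11b. The counts of stretches are thus not at the same length as that share. The Runx3 stretch shown, alone of the 11, also holds 2 matches of the RUNX motif TGTGGT on its other strand, a motif found in 14.2% of windows. A match is a description of these letters only. Of the 10 genes, 9 had a window in the table, Ets1 had none, and the window of Id3 lies wholly within an exon.

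The RNA counts came from 362457 to 839188 UMIs per mouse in kept cells, with a median of 993 to 2660 UMIs per cell. TAT-CRE 208 was the shallowest library and the one with the lowest share of ribosomal RNA genes, 28.3% of its UMIs against 43.9% to 48.0% in the other mice. The 5 plates use the same 384 cell barcodes under separate pool barcodes, and no kept well had counts identical to another. As a check of the sort, 9 T cell marker genes summed to 4269 to 6130 CPM (UMIs scaled to 1000000 per mouse or class) in TAT-CRE mice and 4656 to 5254 CPM in PBS mice, and 5 markers of choroid plexus epithelium to at most 8.28 CPM in TAT-CRE and 5.41 CPM in PBS mice. The floxed gene, Nr3c1, stood at 175, 141 and 156 CPM in TAT-CRE 207, 208 and 215 and at 191 and 222 CPM in PBS 216 and 218. All 3 TAT-CRE levels lie below both PBS levels, but this order was not tested and its share over all genes was not counted. Counts over a whole gene need not show the loss of a floxed exon.

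Id2 was found in 689 of 1482 cells (46.5%), with 3046 UMIs in all. Ets1 followed in 423 cells (28.5%), Bcl11b in 282 (19.0%), Runx3 in 192 (13.0%), Ikzf1 in 178 (12.01%) and Gata3 in 106 (7.15%). Runx1 and Eomes each had a UMI in 65 cells, Tbx21 in 27 and Id3 in 9. These shares order detection and not RNA abundance, since the counts are not scaled to transcript length. Empty wells give the background: of 20 wells with no cell, 1 held an Id2 UMI, 1 a Runx3 UMI and none a UMI of the other members. A cell with an Id2 UMI held 4.42 of them on average and up to 28. Among 2797 genes found in at least 50 cells the median of that average was 2.53 UMIs, and the value of Id2 stood at percentile 98.4 and that of Ets1 (3.81 UMIs) at percentile 96.4. Rare members rested on few cells: the 31 UMIs of Id3 came from 9 cells, 1 of which held 13. At this depth 345 cells (23.3%) had no UMI of any member, 547 had 1 member, 351 had 2, 184 had 3, 40 had 4 and 15 had 5.

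No difference of a member between TAT-CRE and PBS mice was larger than the spread between mice. Id2 stood at 1060, 1040 and 906 CPM in TAT-CRE 207, 208 and 215, against 1027 and 991 CPM in PBS 216 and 218. Over the 5 mice the coefficient of variation was 6.03%, and 11.1% when scaled to UMIs outside ribosomal RNA (1451 to 1956 CPM in TAT-CRE and 1768 to 1894 CPM in PBS mice, lowest in TAT-CRE 208). Ets1 had 454, 712 and 447 CPM in TAT-CRE mice and 503 and 591 CPM in PBS mice. The groups overlapped for Ets1 as for the other 9 members. In edgeR's quasi-likelihood test over 6341 genes with Benjamini-Hochberg adjustment, 0 of the 10 members were called at an adjusted p under 0.05, against a background of 0% of all genes. Without adjustment 239 genes, and 0 members, had p under 0.05, and DESeq2 called 1 gene. The log2 fold change of Id2 was −0.09 ± 0.20 (SE), that of Ikzf1, the only member with a positive one, 0.31 ± 0.29, and the median over the members −0.23 beside 0.00 over all genes. With 3 against 2 mice an exact permutation test cannot go below p = 0.1. Fewer cells of a type and less RNA per cell cannot be told apart in these sums.

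**Figure D1:**
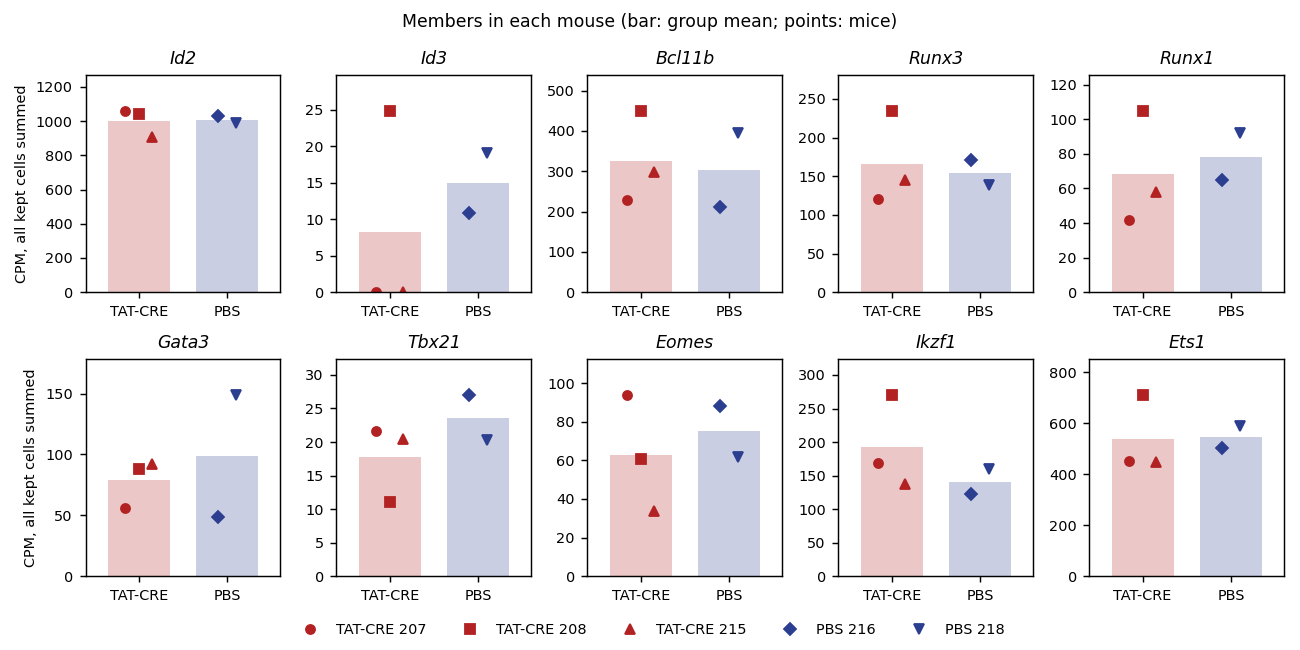
CPM of each member (y axis) in the summed kept cells of each mouse, TAT-CRE in red and PBS in blue, with the group mean as a bar. Id2 lies between 906 and 1060 CPM in all 5 mice, and the groups overlap for every member.

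The Runt factors, T-box factors and remaining members were read in the same way. Runx3 had 120, 235 and 145 CPM in TAT-CRE mice and 171 and 138 CPM in PBS mice. Bcl11b had 230, 450 and 299 CPM in TAT-CRE mice and 211 and 396 CPM in PBS mice. Ikzf1 had 169, 270 and 138 CPM in TAT-CRE mice and 123 and 160 CPM in PBS mice. TAT-CRE 208 was the highest library for these 3 genes, for Ets1, for Runx1 and for Id3, and it is the library with the low ribosomal RNA share; scaled to UMIs outside ribosomal RNA it was no longer the highest for Bcl11b (628 CPM, against 705 in PBS 218), Ets1 (993, against 1054 in PBS 218) or Runx1 (146, against 164 in PBS 218). Gata3 was spread from 56.3 to 91.8 CPM in TAT-CRE mice and had 48.6 and 149 CPM in PBS mice. Eomes had 93.9, 60.7 and 34.0 CPM in TAT-CRE mice and 88.3 and 62.0 CPM in PBS mice. The PBS levels of Eomes lie inside the TAT-CRE range, while those of Gata3 lie outside it on either side. Tbx21 stood at 11.0 to 21.7 CPM in TAT-CRE mice and 20.3 and 27.0 CPM in PBS mice. Id3 had 0, 24.8 and 0 CPM in TAT-CRE mice and 10.8 and 19.1 CPM in PBS mice. The zeros for Id3 are 0 of 311 and 0 of 298 cells, which allow shares of up to 0.965% and 1.01% (3 counts, counting error only). A list of 8 NK cell markers summed to 27.2 to 146 CPM in TAT-CRE mice and 179 to 211 CPM in PBS mice, without overlap. This lack of overlap was not tested, and its share over all genes was not counted. Of the markers with UMIs, all but Gzma had fewer in TAT-CRE mice. Klre1 had 32 UMIs in TAT-CRE and 109 in PBS mice, Fcer1g 10 and 50, and Klrb1c 6 and 30 in the same order. Gzma, a granzyme that cytotoxic T cells also use, had 122 UMIs in TAT-CRE and 63 in PBS mice. Klra4 had no UMI in any mouse. Ncr1, Klra8 and Tyrobp had none in TAT-CRE mice and 4, 1 and 10 UMIs in PBS mice. Without the 98 cells with a UMI of these markers, 0 members were called in edgeR, and Tbx21 stood at a log2 fold change of 0.09 ± 0.85 (SE), beside −0.41 ± 0.76 with them.

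Within the 630 cells with a Cd8a or Cd8b1 UMI and no Cd4 UMI (Cd8-UMI cells), 8 members passed the filter on low counts in the same comparison of treatments. Of these 8, 0 were called by edgeR, against 0% of 4013 genes, and 0 had an unadjusted p under 0.05. Id2 had 1075, 1028 and 897 CPM in the Cd8-UMI cells of TAT-CRE mice and 1069 and 1078 CPM in those of PBS mice. Eomes had 117, 132 and 70.7 CPM in TAT-CRE mice and 115 and 72.2 CPM in PBS mice. The groups overlap for both genes.

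Id2 levels, summed per mouse, differed between cell classes set by the residency and recirculation markers Cxcr6 and Klf2. Cxcr6 encodes a chemokine receptor of tissue-resident T cells, and Klf2 a factor that keeps the exit receptor S1pr1 expressed. Cxcr6-UMI cells (a Cxcr6 UMI and no Klf2 UMI, 384 cells) were set against Klf2-UMI cells (the reverse, 139 cells) of the same mouse. Id2 had 1264, 1278 and 1200 CPM in the Cxcr6-UMI cells of TAT-CRE 207, 208 and 215 and 1190 and 1533 CPM in those of PBS 216 and 218. In the Klf2-UMI cells of the same mice it had 569, 392, 421, 438 and 602 CPM. Every Cxcr6-UMI value lies above every Klf2-UMI value, a lack of overlap in either direction seen for 2.11% of all genes tested, with means of 1293 ± 140 CPM in Cxcr6-UMI and 485 ± 94.6 CPM in Klf2-UMI cells (SD, n = 5 mice each). The log2 fold change was 1.45 ± 0.15 (SE) with a Benjamini-Hochberg adjusted p of 0.000837 in edgeR's quasi-likelihood test with the mouse as a block. It was the smallest p of the 1138 genes tested. Of the 6 members that passed the filter on low counts Id2 was the only one called, against a background of 0.351% of all genes, the other 3 called genes being Nkg7, Ccl5 and AW112010.

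**Figure D2:**
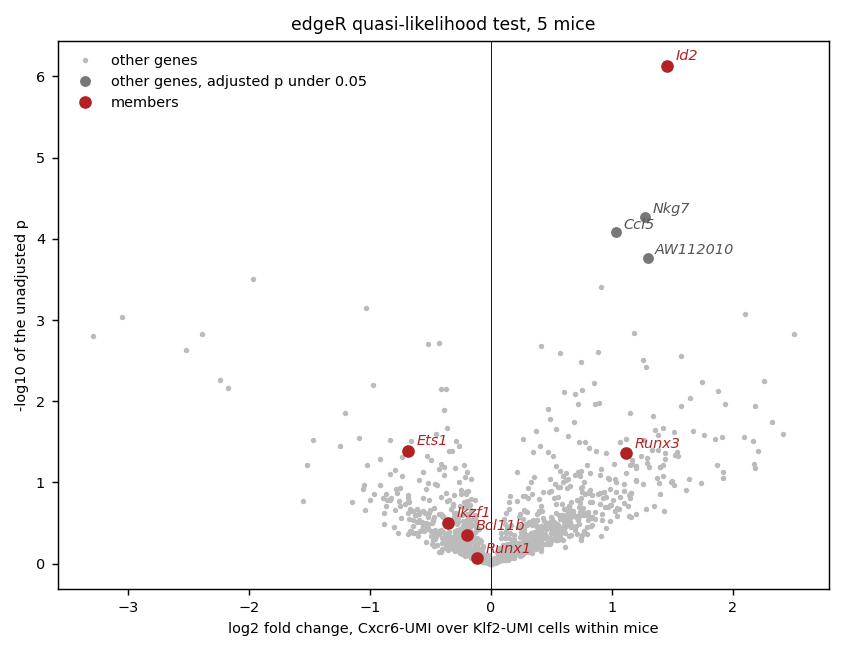
Log2 fold change of Cxcr6-UMI over Klf2-UMI cells (x axis) against −log10 of the unadjusted p (y axis) for 1138 genes in the edgeR test over 5 mice, members in red and other genes in grey. Id2 is the highest point, at a log2 fold change of 1.45, while Runx3 (1.11) and Ets1 (−0.69) lie among genes that were not called.

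The Id2 difference combined more cells with a UMI and more UMIs in those cells. The pooled median depth was 1916.5 UMIs in Cxcr6-UMI and 2395 in Klf2-UMI cells, but within TAT-CRE 215 (1875 and 1704.5 UMIs in the same order) and PBS 218 (2979 and 2882.5) the Cxcr6-UMI cells were the deeper ones. With each cell thinned to 400 UMIs, 30.2% ± 6.13 of Cxcr6-UMI and 14.4% ± 3.39 of Klf2-UMI cells had an Id2 UMI (SD, n = 5 mice). Without thinning the shares were 53.4% ± 14.8 of Cxcr6-UMI and 37.7% ± 12.2 of Klf2-UMI cells and overlapped between the classes. A Cxcr6-UMI cell with an Id2 UMI held 5.51 ± 0.88 of them and a Klf2-UMI cell with one 3.43 ± 1.14, higher in Cxcr6-UMI cells in 5 of 5 mice. When at most 1 UMI of a gene was counted per cell, the log2 fold change was 0.71 ± 0.14 (SE) and was no longer called (edgeR adjusted p = 0.0659). In the other 14 alternatives it was called, at 1.36 to 1.71, with adjusted p between 2.82e-11 and 0.00724. These include the fit without the filter on low counts, in which the median of all genes moved to 0.78. With 1 mouse left out the Id2 change was 1.36 to 1.55, with edgeR adjusted p between 0.00181 and 0.00724. The NK cell marker list summed to 184 ± 126 CPM in Cxcr6-UMI and 57.6 ± 84.4 CPM in Klf2-UMI cells (21.0 to 324 CPM in Cxcr6-UMI and 0 to 196 CPM in Klf2-UMI cells), with Ncr1, Tyrobp and Klra4 at 0 UMIs in both classes. The CD8 T cell markers summed to 4933 ± 1268 CPM in Cxcr6-UMI and 2817 ± 774 CPM in Klf2-UMI cells. That list holds the effector genes Nkg7, Ccl5 and Gzmk, at log2 fold changes of 1.27, 1.03 and 1.75. Of the coreceptor genes, Cd8a stood at 0.75 ± 0.20 (SE, edgeR adjusted p = 0.170) and Cd8b1 at 0.04 ± 0.23. Cd8-UMI cells were 190 of the 384 Cxcr6-UMI and 63 of the 139 Klf2-UMI cells. The 7 monocyte or macrophage markers summed to 159 ± 47.0 CPM in Cxcr6-UMI and 59.2 ± 33.1 CPM in Klf2-UMI cells, but Lyz2, Cd14, Csf1r, Fcgr1 and Adgre1 were at 0 in all 5 mice and Itgam in 4, so that sum is nearly all Ccr2, which T cells also express. Without the 98 cells that had a UMI of any NK cell marker, the log2 fold change of Id2 was 1.54 ± 0.15 (SE; edgeR adjusted p = 0.00155).

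The same direction was seen on either side of Cd8 detection. Among Cd8-UMI cells Id2 had 1235, 1343 and 1072 CPM in the Cxcr6-UMI cells of TAT-CRE mice and 1276 and 1830 CPM in those of PBS mice, against 869, 516, 563, 488 and 697 CPM in the Klf2-UMI cells of the same mice in that order. The levels do not overlap, though how many genes share this among Cd8-UMI cells was not counted. The log2 fold change was 1.19 ± 0.20 (SE, edgeR adjusted p = 0.0417). Id2 was the only gene called of 445 (0.225%), and this call was marginal: it was lost in 7 of 14 alternatives, among them those without TAT-CRE 208 (adjusted p = 0.0615), TAT-CRE 215 (0.223) or PBS 218 (0.0972). Among cells with neither a Cd4 nor a Cd8 UMI, Id2 averaged 1348 ± 241 CPM in Cxcr6-UMI and 277 ± 216 CPM in Klf2-UMI cells (SD, n = 5 mice), higher in 5 of 5 mice. The 4 classes of Cxcr6 and Klf2 detection were ordered as follows for Id2: cells with both averaged 1372 ± 610 CPM, Cxcr6-UMI cells 1293 ± 140, cells with neither 939 ± 79.5 and Klf2-UMI cells 485 ± 94.6 (SD, n = 5 mice). The 49 cells with both spanned 581 to 2079 CPM over mice and overlapped all 3 other classes, whereas the ranges of the other 3 classes, 1190 to 1533, 848 to 1036 and 392 to 602 CPM, do not touch. How many genes show such separate ranges was not counted. No difference between treatments in this change of Id2 was detectable: the interaction was 0.12 ± 0.37 on the log2 scale (SE; edgeR adjusted p = 1), and 0 of 8 members tested there were called, against 0% of 2516 genes. All 8 interactions were above 0, with a median of 0.68 beside 0.07 over all genes. Their SEs ran from 0.37 (Id2) to 2.44 (Eomes), and 0 had an unadjusted edgeR p under 0.05. The share of all genes above 0 was not counted.

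Runx3, a factor of resident CD8 T cells, had 131, 313 and 246 CPM in the Cxcr6-UMI cells of TAT-CRE mice and 191 and 150 CPM in those of PBS mice. In Klf2-UMI cells it had 100, 98.0, 36.6, 204 and 58.8 CPM in the same order of mice. The level was higher in Cxcr6-UMI cells in 4 of 5 mice and the classes overlap; the log2 fold change of 1.11 ± 0.49 (SE) was not called (edgeR adjusted p = 0.531). Ets1 ran the other way in 4 of 5 mice, with 300, 574, 351, 370 and 503 CPM in Cxcr6-UMI and 703, 1176, 165, 1096 and 676 CPM in Klf2-UMI cells. TAT-CRE 215 was the exception, and the log2 fold change of −0.69 ± 0.30 (SE) was not called (edgeR adjusted p = 0.530). Ikzf1 averaged 173 ± 66.0 CPM in Cxcr6-UMI and 226 ± 64.5 CPM in Klf2-UMI cells, lower in 5 of 5 mice but overlapping and not called (log2 −0.36 ± 0.34, SE; edgeR adjusted p = 0.820). Bcl11b (log2 −0.20 ± 0.26) and Runx1 (−0.12 ± 0.67) lay near 0, with edgeR adjusted p of 0.864 and 0.976. Their directions are not firm: Bcl11b stood at 0.04 and Runx1 at 0.13 without the filter on low counts, a fit in which the median of all genes moved to 0.78.

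Eomes, Tbx21, Gata3 and Id3 were too rare for the filter on low counts in the comparison of Cxcr6-UMI with Klf2-UMI cells. Eomes had 150, 13.0, 14.0, 98.6 and 84.5 CPM in Cxcr6-UMI and 33.5, 0, 0, 47.0 and 36.7 CPM in Klf2-UMI cells, with overlap between the classes. It was higher in Cxcr6-UMI cells in the 3 mice with UMIs in both classes; in TAT-CRE 208 and 215 it rests on 1 and 2 UMIs in Cxcr6-UMI cells, below the 98.0 and 54.9 CPM that 0 counts in Klf2-UMI cells allow (3 counts each). Tbx21 averaged 22.5 ± 17.9 CPM in Cxcr6-UMI (25 UMIs) and 1.47 ± 3.29 CPM in Klf2-UMI cells (1 UMI; SD, n = 5 mice), with no UMI in either class of TAT-CRE 208. Gata3 averaged 51.1 ± 16.2 CPM in Cxcr6-UMI and 122 ± 133 CPM in Klf2-UMI cells, and 3 of 5 mice had the higher value in Cxcr6-UMI cells. TAT-CRE 208 and PBS 218 alone, at 261 and 272 CPM, make the mean of the Klf2-UMI class high. Over the 6 members that passed the filter the median log2 fold change was −0.16, beside 0.10 over all 1138 genes.

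**Figure D3:**
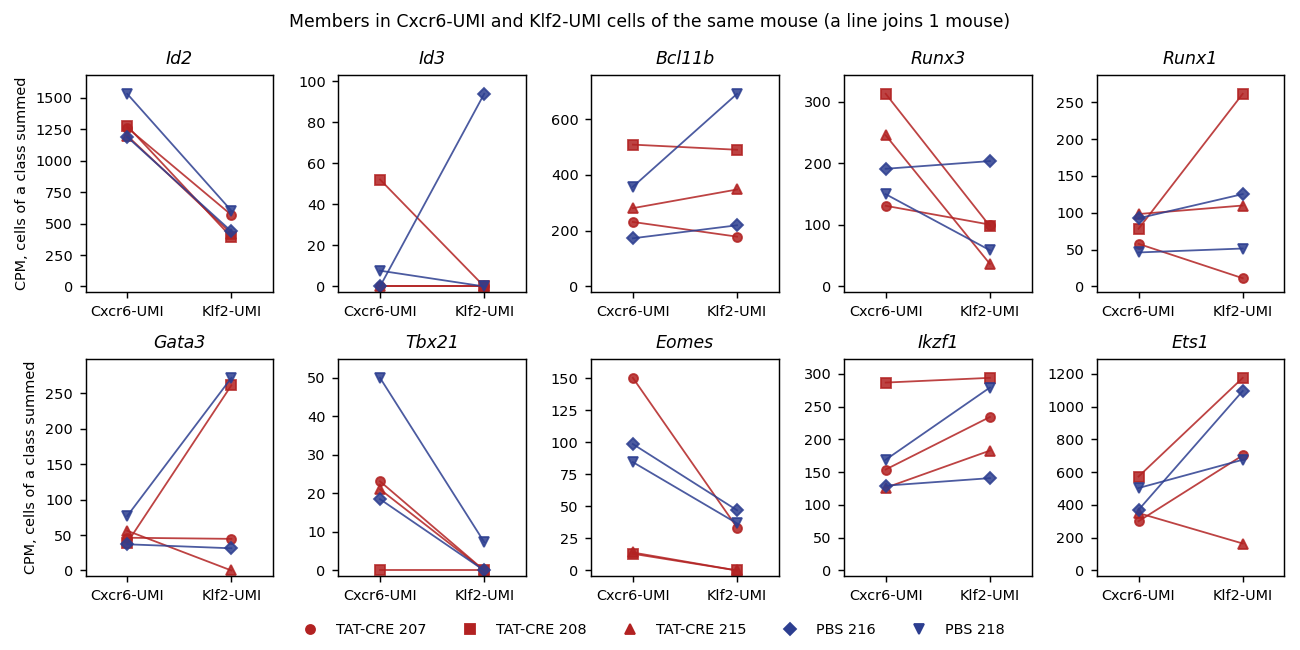
CPM of each member (y axis) in summed Cxcr6-UMI cells (left) and Klf2-UMI cells (right) of each mouse, a line joining the classes of 1 mouse, TAT-CRE in red and PBS in blue. Id2 lies at 1190 to 1533 CPM in Cxcr6-UMI cells and at 392 to 602 CPM in Klf2-UMI cells of the 5 mice, and no other member shows classes without overlap.

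Other genes tied to these regulators were read in the same comparison. Of 12 effector genes linked to T-bet and Eomes, 6 were tested and 2 rose: Nkg7, a cytotoxic granule protein (log2 1.27 ± 0.20), and Ccl5, a chemokine of effector and memory T cells (1.03 ± 0.17), with edgeR adjusted p of 0.0304 and 0.0316. Each lost its call in 4 of 5 fits that left out 1 mouse, with adjusted p up to 0.120 for Nkg7, called only without TAT-CRE 208, and up to 0.125 for Ccl5, called only without PBS 216. The median over the 6 was 1.15. Of 10 genes on the naive and memory side linked to Id3, 5 were tested, 0 were called and all 5 had log2 fold changes below 0, with a median of −2.24. That list holds Tcf7 and Lef1, 2 factors of naive T cells, at −1.04 ± 0.23 and −2.52 ± 0.65 (SE; edgeR adjusted p = 0.117 and 0.153). Of 10 residency genes, 4 were tested and 0 called, with a median of 1.08. Of 44 other T cell transcription factors, 11 were tested and 0 called, with a median of −0.01. Klf3, a relative of Klf2, stood at −2.39 ± 0.58 (SE; edgeR adjusted p = 0.139). Of 9 partners of E proteins and Runx factors, 1 was tested and 0 called, the chromatin remodeller Chd4 at −0.76 ± 0.52 (SE). The list linked to Gata3, 9 type 2 genes, had none that could be tested, at a sum of 32.6 ± 15.3 CPM in Cxcr6-UMI and 15.6 ± 18.1 CPM in Klf2-UMI cells (SD, n = 5 mice).

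Between coreceptor classes, Eomes levels lay higher in Cd8-UMI cells and Gata3 levels higher in Cd4-UMI cells of all 5 mice, but no member passed a test and the Cd4-UMI class is sparse. Cd8-UMI cells (630) were set against Cd4-UMI cells (a Cd4 UMI and no Cd8a or Cd8b1 UMI, 85 cells) of the same mouse. Eomes had 117, 132 and 70.7 CPM in the Cd8-UMI cells of TAT-CRE mice and 115 and 72.2 CPM in those of PBS mice. In Cd4-UMI cells it had 0 UMIs in 4 mice and 1 UMI, 31.9 CPM, in PBS 218. The classes do not overlap for Eomes. A lack of overlap was seen for 2.2% of the 728 genes that passed the filter on low counts, a set without Eomes. Its share among genes as rare as Eomes was not counted. A count of 0 allows up to 48.8, 127, 56.6 and 119 CPM in TAT-CRE 207, 208 and 215 and PBS 216 (3 counts each), so in PBS 216 the Cd8-UMI level is within that limit. Gata3 had 39.7, 102, 44.7, 30.3 and 107 CPM in Cd8-UMI cells and 179, 169, 151, 79.4 and 223 CPM in Cd4-UMI cells, lower in Cd8-UMI cells in 5 of 5 mice with overlap between the classes. With cells thinned to 400 UMIs, 3.16% ± 0.65 of Cd8-UMI and 0.25% ± 0.55 of Cd4-UMI cells had an Eomes UMI, and 2.03% ± 0.79 of Cd8-UMI and 4.82% ± 2.43 of Cd4-UMI cells a Gata3 UMI (SD, n = 5 mice). The NK cell markers summed to 137 ± 63.7 CPM in Cd8-UMI and 14.96 ± 20.8 CPM in Cd4-UMI cells. The 8 type 2 innate lymphoid markers, Gata3 among them, summed to 393 ± 76.2 CPM in Cd8-UMI and 906 ± 440 CPM in Cd4-UMI cells. Of these 8, Il5, Il13 and Kit were at 0 in every mouse, and Calca in all but TAT-CRE 215. In TAT-CRE 207 and PBS 216 only Gata3, Rora and Il7r had UMIs. Il7r and Rora are also on the lists of T cell genes read here. Il7r stood at a log2 fold change of −0.99 ± 0.40 (SE, edgeR adjusted p = 0.654). The part of these markers in the Eomes and Gata3 differences was not tested. Eomes and Gata3 did not pass the filter on low counts; an exact sign-flip permutation test over the 5 mice, two-sided, gave for each the smallest p that 5 mice allow, which is above 0.05, among 20 such tests of members.

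Of the 5 members that passed the filter, 0 were called between Cd8-UMI and Cd4-UMI cells, against a background of 0.275% (2 of 728 genes, Ccl5 and Ly6c2). Ets1 had 479, 529, 335, 482 and 605 CPM in Cd8-UMI and 716, 676, 396, 1072 and 830 CPM in Cd4-UMI cells. It was lower in Cd8-UMI cells in 5 of 5 mice, with overlap, at a log2 fold change of −0.57 ± 0.23 (SE; edgeR adjusted p = 0.654). Id2 averaged 1029 ± 76.9 CPM in Cd8-UMI and 879 ± 595 CPM in Cd4-UMI cells (SD, n = 5 mice), a wide spread set by TAT-CRE 208, where 19 Cd4-UMI cells gave 1901 CPM. Its log2 fold change was 0.37 ± 0.29 (SE; edgeR adjusted p = 0.924), and 0.89 without that mouse (edgeR adjusted p = 0.333). Runx3 averaged 204 ± 89.4 CPM in Cd8-UMI and 209 ± 189 CPM in Cd4-UMI cells, a pair that the spread does not separate (log2 0.27 ± 0.60, SE; edgeR adjusted p = 0.990). Bcl11b (0.12 ± 0.41) and Ikzf1 (−0.51 ± 0.55) were not called either, and the median over the 5 members was 0.12 beside 0.07 over all genes. Tbx21 averaged 26.1 ± 15.5 CPM in Cd8-UMI (45 UMIs) and 3.77 ± 8.43 CPM in Cd4-UMI cells (1 UMI; SD, n = 5 mice), with none in either class of TAT-CRE 208; its Cd8-UMI level is below what 0 counts in Cd4-UMI cells allow in the 3 other mice without a UMI there (48.8 to 119 CPM). Without the filter on low counts 57 genes were called, but there the median of all genes moved to 1.27, and Id2, called there at 1.21 (edgeR adjusted p = 0.0339), lies below that shift.

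**Figure D4:**
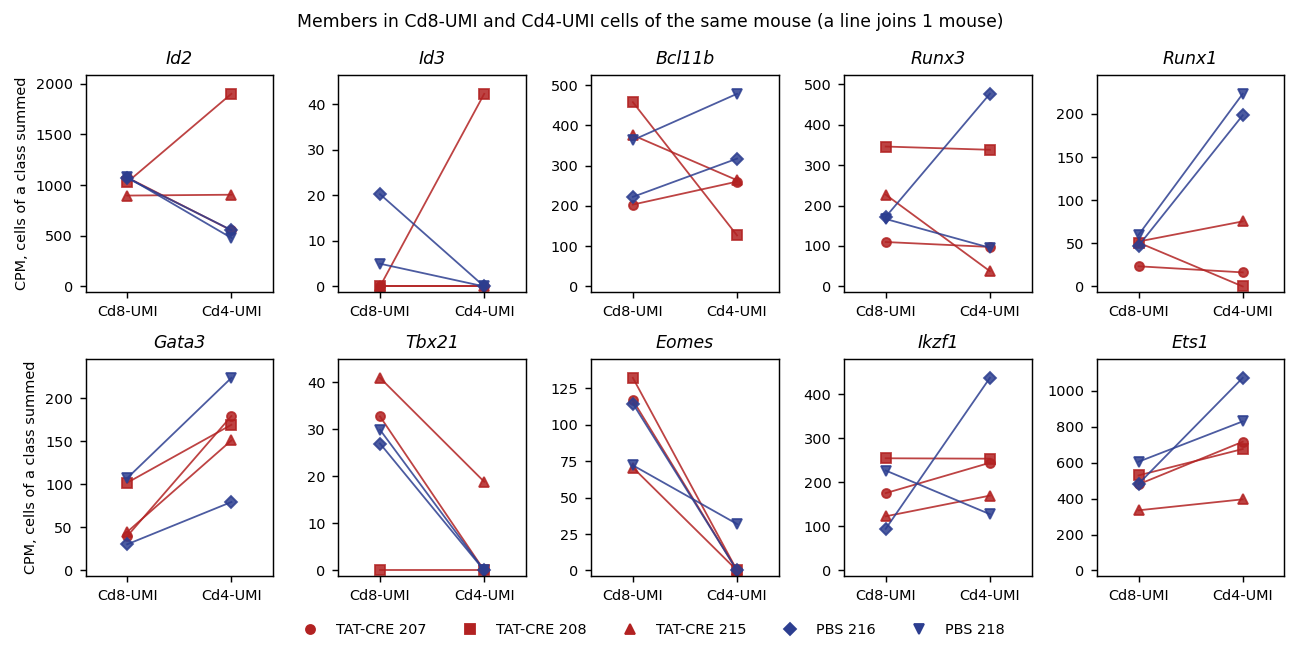
CPM of each member (y axis) in summed Cd8-UMI cells (left) and Cd4-UMI cells (right) of each mouse, a line joining the classes of 1 mouse, TAT-CRE in red and PBS in blue. Eomes lies at or above 70.7 CPM in Cd8-UMI cells and at or below 31.9 CPM in Cd4-UMI cells, and Gata3 and Ets1 are lower in the Cd8-UMI cells of all 5 mice.

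Of the 12 effector genes linked to T-bet and Eomes, 4 were tested between the coreceptor classes and 1, Ccl5, rose by a log2 fold change of 2.17 ± 0.20 (SE; edgeR adjusted p = 2.73e-05), a call lost when at most 1 UMI of a gene was counted per cell (0.63; adjusted p = 0.384). That list summed to 4906 ± 1064 CPM in Cd8-UMI and 1739 ± 549 CPM in Cd4-UMI cells. The 9 type 2 genes summed to 16.5 ± 13.5 CPM in Cd8-UMI and 98.0 ± 121 CPM in Cd4-UMI cells. Of the 44 other factors 7 were tested and 0 called, the 3 of smallest p being Foxp1 (2.09 ± 0.71), Tcf7 (−0.75 ± 0.39) and Stat4 (1.34 ± 0.74; log2 fold changes ± SE).

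Members were found in the same cell about as often as their frequencies and cell depths imply. Expected counts and odds ratios were taken within 4 classes of UMI depth in each mouse, over cells, with no test. Of 45 pairs, 30 had at least 5 cells expected, 15 of these lay above expectation and their median odds ratio was 0.996. Id2 and Tbx21 were found together in 20 cells against 14.6 expected (odds ratio 2.84), a value that lay between 1.81 and 7.10 when 1 mouse was left out. Runx3 and Runx1 shared 19 cells against 9.68 expected (odds ratio 2.61, between 2.06 and 2.99 with 1 mouse left out). Runx1 also shared 30 cells with Ets1 against 23.0 expected (1.72), and Gata3 21 cells with Ikzf1 against 14.9 (1.61). At the low end Gata3 and Eomes shared 3 cells against 5.39 expected (odds ratio 0.53), Runx1 and Ikzf1 6 against 9.39 (0.56), and Eomes and Ets1 16 against 22.2 (0.60). The Gata3 and Eomes value rests on PBS 218, without which it is 1.06.

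**Figure D5:**
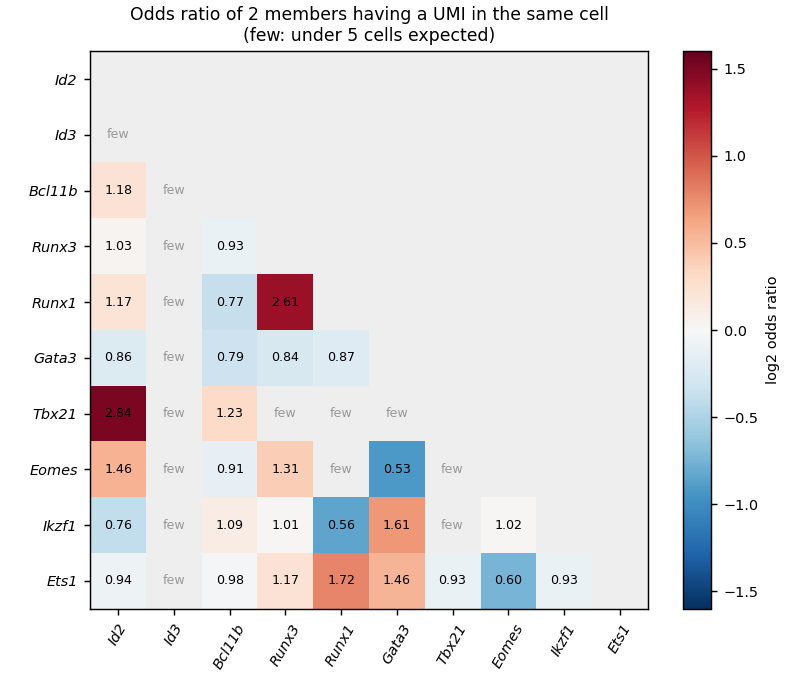
Odds ratio of a UMI of 2 members in the same cell, printed in each square with at least 5 cells expected and coloured on a log2 scale, over 1482 cells in strata of mouse and depth. Most squares lie near 1; the pairs Id2 with Tbx21 (2.84) and Runx3 with Runx1 (2.61) are the highest.

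Against single marker genes, on the same measure, Id2 went with Cxcr6 (odds ratio 1.43) and was rarer with Klf2 (0.62) and S1pr1 (0.38, 36 cells against 55.2 expected). Ets1 had the opposite order, with 1.95 for S1pr1, 1.36 for Klf2 and 0.96 for Cxcr6. Eomes and Tbx21 stood out with the effector gene Ccl5, at 3.85 (57 cells against 43.8 expected) and 3.50 (24 against 18.6), and, for Eomes, with Cd8a at 2.50 and Cd8b1 at 1.91. Tbx21 had 2.74 with Cd8a but 1.19 with Cd8b1 (10 cells against 9.04 expected). Gata3 had 1.73 with Cd4, 0.62 with Cd8a and 0.44 with Cd8b1. For 6 members found in at least 5% of cells, likeness to 1765 other genes at that frequency was measured by the same odds ratio. The genes most like Id2 were Tpp2 (2.60), Mpc2 (2.49) and Cd96 (2.47), beside a median of 1.07 over all 1765. For Gata3 they were Irak1 (3.07), Ctla4 (2.81) and Vamp8 (2.79), for Bcl11b Pomp, Ddx17 and Def6 (2.21 to 2.31), and for Ets1 Tnks2, Tbl1xr1 and Rnf125 (2.05 to 2.17). For Runx3 they were Gm7117, Plec and Dock11 (2.29 to 2.34), and for Ikzf1 Ski, Uqcrc2 and Rpl10-ps5 (2.16 to 2.25). These leading genes were found in 77 to 104 cells each and were picked from many, so the ratios are descriptions.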

How the data were processed

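UMI counts per gene and well were deposited by the authors as raw counts for 5 libraries, 1 plate of 384 wells each; the number of cells per well is a deposited count given per the file headers. The submitters' processing notes name mm10 as the build and bcl2fastq (2.15.0.4). Strand use, annotation and aligner: not given in the sources used here; thus overlapping genes can share counts; those overlapping members held 0 to 8 UMIs. Cells were kept as stated above, and CPM were taken over UMIs outside spike-ins (scaled to 1000000).

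Counts were summed per mouse, or per mouse and cell class, and tested with edgeR 4.0.16 (R 4.3.3; filterByExpr, TMM, quasi-likelihood, Benjamini-Hochberg over all genes tested, threshold 0.05), with the mouse as a block between classes of the same animals. Genes that define a class were left out of the adjustment. Between treatments, p-values measure the spread between these 5 mice, whose plates cannot be told apart from them. Between classes, with the mouse as a block, they measure the spread of class differences over the mice. The block comes from the shared animal; deviations of same-mouse sums correlated at 0.0863 to 0.150. Thinned shares are the exact chance of at least 1 UMI among 400 drawn, all kept cells having 400. Intervals and floors cover counting error only. Doublets were not called, since wells were sorted. The tests were checked on simulated counts. All 10 members are named. Of other lists the called genes were named or, between coreceptor classes, the 3 of smallest p, and for likeness the 3 of highest odds ratio. Tcf7, Lef1, Klf3, Chd4, Gzmk, Cd8a and Cd8b1 were named between Cxcr6-UMI and Klf2-UMI cells after their values were seen. The same holds for Il7r and Rora between coreceptor classes. Members and lists were chosen with earlier results of these data known. Alternatives were DESeq2 1.42.0 and its size factors, no count filter, no ribosomal RNA genes, no block, 1 mouse left out, other cell and class limits and, added after seeing the data, at most 1 UMI per gene and cell, and no cells with NK marker UMIs.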

Additional observations from a re-analysis of the deposited data

Results flagged for a closer look

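Among 40 combinations of member and cell class, each over 5 mice, 10 had a mouse that stood apart, with a gap to the nearest mouse above 0.71 of the whole range. Chance alone flags about 1 in 20 such groups where values are normally distributed. That rate does not hold for sparse counts, since a member with UMIs in only 1 mouse of a class is always flagged. Of these 10, 7 rest on 1 to 6 UMIs in a class where most mice had none or few. Id3 stood at 52.1 CPM (4 UMIs) in the Cxcr6-UMI cells of TAT-CRE 208, at 94.0 CPM (6 UMIs) in the Klf2-UMI cells and 20.2 CPM (6 UMIs) in the Cd8-UMI cells of PBS 216, and at 42.2 CPM (1 UMI) in the Cd4-UMI cells of TAT-CRE 208. Tbx21 stood at 7.35 CPM (1 UMI) in the Klf2-UMI cells of PBS 218 and at 18.9 CPM (1 UMI) in the Cd4-UMI cells of TAT-CRE 215, and Eomes at 31.9 CPM (1 UMI) in the Cd4-UMI cells of PBS 218. The other flags rest on more UMIs. Id2 was highest in the Cxcr6-UMI cells of PBS 218, at 1533 CPM (399 UMIs in 81 cells) beside the next mouse at 1278 CPM, and lowest in the Cd8-UMI cells of TAT-CRE 215, at 897 CPM beside 1028 CPM. Ikzf1 was highest in the Cxcr6-UMI cells of TAT-CRE 208, at 287 CPM (22 UMIs) beside 169 CPM.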

How the results depend on the processing

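The limits are depth, with medians of 993 to 2660 UMIs per cell, the 85 Cd4-UMI cells, and 5 mice. Of 349 alternative values of members' log2 fold changes, 317 kept their direction and side of the threshold, 23 reversed, 8 lost a call and 1 gained one. These leave out the treatment comparison in Cd8-UMI cells and every interaction but that of Id2. Only Id2 between Cxcr6-UMI and Klf2-UMI cells, in all and among Cd8-UMI cells, was called to begin with, so most could hardly change side. Of 260 alternative shares of cells, 234 moved by less than the spread. Causes were not tested. No paired analysis was possible for TAT-CRE against PBS because the groups share no replicate number. Between classes, the pairing by mouse was the main design: without the replicate block Id2 stood at 1.42 ± 0.18 between Cxcr6-UMI and Klf2-UMI cells (edgeR adjusted p = 0.00192), and 2 genes were called among Cd8-UMI cells, against 1.

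Genes called between TAT-CRE and PBS numbered 0, but 1 by DESeq2, 8 without the count filter and 1 with at most 1 UMI per gene and cell (range 0 to 0 with 1 mouse left out); in Cd8-UMI cells 0, but 1 without the filter and 1 with the cap. Cd8-UMI against Cd4-UMI gave 2 genes, 9 by DESeq2, 57 without the filter, 0 with the cap and 1 to 3 with 1 mouse left out. Cxcr6-UMI against Klf2-UMI gave 4, 14 by DESeq2, 29 without the filter, 2 each under the other class rule, with the cap and without NK-marker cells, and 1 to 3 with 1 mouse left out (1 without TAT-CRE 207, TAT-CRE 215 or PBS 218). Among Cd8-UMI cells that gave 1, 5 by DESeq2, 14 without the filter, 0 with DESeq2 size factors, without ribosomal RNA genes, without the mitochondrial limit, under the other class rule and with the cap, and 0 to 4 with 1 mouse left out. The interaction called 0, and 1 under the other class rule.

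Between TAT-CRE and PBS, log2 fold changes turned positive for Bcl11b (0.14 without TAT-CRE 207, 0.47 without PBS 218, 0.14 with the cap, 0.076 without NK-marker cells; -0.37 to 0.47 with 1 mouse left out), Runx3 (0.12 without TAT-CRE 207, 0.17 without PBS 216, 0.12 with the cap; -0.21 to 0.17), Id2 (0.031 without TAT-CRE 208, 0.039 with the cap, 0.0017 without NK-marker cells; -0.19 to 0.031), Gata3 (0.57 without PBS 218; -0.96 to 0.57) and Tbx21 (0.094 without NK-marker cells). Between Cd8-UMI and Cd4-UMI cells, Ets1 (0.23) and Ikzf1 (0.28) turned without the filter, Bcl11b without TAT-CRE 208 (-0.0084, range to 0.31) and Runx3 without TAT-CRE 215 (-0.15, range to 0.78). Between Cxcr6-UMI and Klf2-UMI cells, Bcl11b turned without the filter (0.044) and without PBS 218 (0.0084, the range starting at -0.34), and Runx1 without the filter (0.13) and without TAT-CRE 208 (0.21, the range starting at -0.51). The interaction of Id2 turned without TAT-CRE 208 (-0.057, range to 0.42), without the mitochondrial limit (-0.075) and without NK-marker cells (-0.051). The Gata3 and Eomes odds ratio was 1.06 without PBS 218, in a range of 0.39 to 1.06 with 1 mouse left out.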
